A study of Mus musculus with 18 samples.

Results

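Ms4a4d, Pkdcc, Pdzph1, Cnr1, Cyp1b1 and Zfhx3 are 6 genes that were named for their large rise in mouse embryonic stem cells labelled as transfected with Foxd3, with or without CA-NFATc3. They are 6 of the 18193 genes with a probe set of a single gene symbol on the array, and 15 of the 45037 probe sets that are not controls read them. They were chosen by their signals in Foxd3 against vector, in both plasmids against CA-NFATc3 and in both plasmids against vector, and since the genes were selected on these signals the 3 comparisons are given as a description without a test. CA-NFATc3 against vector and both plasmids against Foxd3 use the same arrays and are described too. Only tamoxifen against DMSO, which shares no array with the choice, was tested for the members.

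Total RNA was measured on 18 expression arrays, 3 labelled biological replicates in each of 6 groups. CGR8 embryonic stem cells, kept with serum and LIF, received by lipofection the empty vector, Foxd3, CA-NFATc3, or Foxd3 and CA-NFATc3 together (called both below). Conditional knockout cells of genotype Foxd3fl/fl:Cre-ERT received DMSO (tamoxifen for 0 days) or tamoxifen for 2 days. All 4 transfected groups carry a plasmid and both knockout groups carry the floxed allele and the Cre, a recombinase that tamoxifen activates. The promoters of the plasmids and of the Cre, the time after transfection, the share of cells that took up plasmid, the number of clones and the use of feeder cells are unstated in the labels. Knockout cells without the Cre that received tamoxifen are not among the groups, so exposure to tamoxifen and loss of Foxd3 cannot be told apart.

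Foxd3 is a forkhead transcription factor known for its part in keeping embryonic stem cells undifferentiated and, later, in neural crest. NFATc3 belongs to the NFAT transcription factors, which move into the nucleus when calcium activates calcineurin. The 6 genes do not form a pathway: Ms4a4d and Cnr1 encode membrane proteins, Pkdcc a secreted kinase, Cyp1b1 an enzyme of oxidative metabolism, Pdzph1 a protein named for its PDZ and pleckstrin homology domains, and Zfhx3 a nuclear transcription factor.

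The 250 bases before the RefSeq start were read for 4 of these genes to show how unlike they are in composition, since the genes were high in the same arrays. Ms4a4d lies on chromosome 19, and Pkdcc, Pdzph1 and Cyp1b1 lie on chromosome 17. Capitals mark the forkhead core TGTTTA or its reverse complement TAAACA in the windows of Ms4a4d and Pdzph1, and the xenobiotic response core GCGTG, here as its reverse complement CACGC, in that of Cyp1b1. The sequences are from RefSeq, build GRCm38.p6, written 5′ to 3′ on the strand of the gene.
Ms4a4d (chr19:11536544-11536793, plus strand): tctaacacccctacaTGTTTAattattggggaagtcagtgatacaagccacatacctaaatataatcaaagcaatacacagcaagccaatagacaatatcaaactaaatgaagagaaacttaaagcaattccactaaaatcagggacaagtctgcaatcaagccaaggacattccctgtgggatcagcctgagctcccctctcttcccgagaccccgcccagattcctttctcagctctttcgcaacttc
Pdzph1 (chr17:58991376-58991625, minus strand): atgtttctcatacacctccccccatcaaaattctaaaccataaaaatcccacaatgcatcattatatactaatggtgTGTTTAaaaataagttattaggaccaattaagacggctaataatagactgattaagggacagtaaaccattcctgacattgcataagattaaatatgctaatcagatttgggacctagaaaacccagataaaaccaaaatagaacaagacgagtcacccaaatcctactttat
Cyp1b1 (chr17:79715062-79715311, minus strand): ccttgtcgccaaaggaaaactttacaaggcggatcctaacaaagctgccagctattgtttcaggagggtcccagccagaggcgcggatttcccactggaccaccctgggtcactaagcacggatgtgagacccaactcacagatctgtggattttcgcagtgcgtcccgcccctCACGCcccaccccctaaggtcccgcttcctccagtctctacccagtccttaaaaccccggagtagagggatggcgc
Pkdcc (chr17:83215033-83215282, plus strand): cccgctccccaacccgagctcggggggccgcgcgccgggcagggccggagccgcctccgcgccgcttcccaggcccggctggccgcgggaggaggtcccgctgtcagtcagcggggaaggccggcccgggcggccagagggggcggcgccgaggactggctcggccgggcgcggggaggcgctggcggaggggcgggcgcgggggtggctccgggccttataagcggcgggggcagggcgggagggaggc

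These windows ranged from A- and T-rich to G- and C-rich. The Pdzph1 window held 33.6% G and C with 2 CpG dinucleotides, that of Ms4a4d 43.2% with 3, that of Cyp1b1 58% with 12 and that of Pkdcc 83.2% with 36. Over all 32536 such windows the medians were 52.4% and 6. The forkhead core, searched on both strands, stood 235 to 230 bases before the start of Ms4a4d and 173 to 168 bases before that of Pdzph1, and was not found in the windows of the other 4 genes, of which Cnr1 has 3 starts. It occurred in 12% of all windows. The NFAT core GGAAA or TTTCC occurred 2 times in the Cyp1b1 window, 237 to 233 and 163 to 159 bases before the start, 1 time in that of the first Cnr1 start, 34 to 30 bases before it, and in 55.7% of all windows. The xenobiotic core of Cyp1b1 lay 76 to 72 bases before the start, and 28.3% of all windows held one, those of the 3 Cnr1 starts among them. These matches describe letters only.

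The targeted gene was read first. The Foxd3 probe set gave 443 ± 55.9 (SD, n = 3) in vector, 237 ± 5.95 in the arrays labelled Foxd3, 451 ± 38.6 in CA-NFATc3 and 234 ± 37.7 in both. Its signal was thus lower in both groups labelled with Foxd3, by a log2 difference of -0.81 ± 0.13 (SE; limma adjusted p = 0.00169) from vector, and the labels do not say whether the probe set reads the plasmid's insert. With tamoxifen Foxd3 fell from 219 ± 25.9 to 31.4 ± 29.6 (log2 difference -2.08 ± 0.27, limma adjusted p = 0.000146). For NFATc3 the Nfatc3 probe set with the highest mean gave 1581 ± 31.4 in vector and 1732 ± 58.5 in CA-NFATc3, a difference that did not pass (0.13 ± 0.06, limma adjusted p = 0.352). Its arrays lay apart, as for 11.7% of all tested genes in that direction. The second Nfatc3 probe set gave 253 ± 39.2 in vector and 325 ± 39.0 in CA-NFATc3, with overlapping arrays. The label of Foxd3 is therefore used only as a label in what follows.

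Signals are MAS5 intensities on a linear scale, each array scaled to a trimmed mean of 500. A signal under 65.8, the median of all values, is called low here. Differences are of log2(signal + 32), which compresses low values, and "at least" folds set each low array of the dimmer group at 65.8. All 10 embryonic stem cell markers examined had group means above 65.8 in each group. Replicate arrays correlated at 0.981 to 0.988, and the 3′ to 5′ actin ratio, a measure of RNA integrity, was 2.21 to 2.42 in transfected and 1.89 to 2.24 in knockout cells. The 3 arrays of a group limit the precision of each value.

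**Figure D1:**
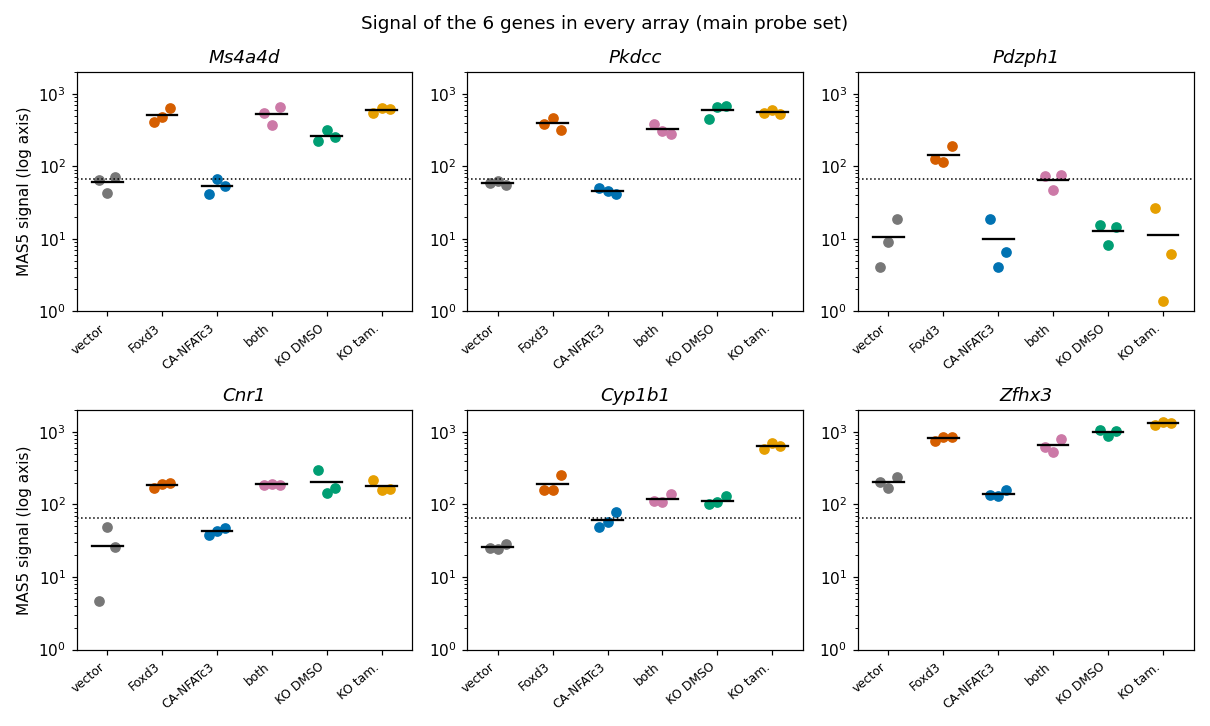
Signal (MAS5 intensity, log axis) of the main probe set of each of the 6 genes in each of the 18 arrays, by group, with points for arrays, bars for group means and a dotted line at 65.8. In every panel the 3 arrays labelled Foxd3 and the 3 labelled with both plasmids lie above all vector arrays, and the knockout groups differ from gene to gene.

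Ms4a4d encodes a member of the MS4A family, multiple-pass membrane proteins of which many are known from immune cells. Its signal was 65.6, 43.2 and 71.8 in vector and 41.4, 65.7 and 53.0 in CA-NFATc3. It was 411, 483 and 630 in the arrays labelled Foxd3 and 544, 372 and 647 in both. These groups therefore formed a low pair and a high pair with no overlap between them and overlap within each pair. The arrays labelled Foxd3 were at least 7.50-fold above vector (log2 difference 2.54 ± 0.20, SE), and both were 2.67 ± 0.20 above CA-NFATc3.

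In the knockout cells Ms4a4d was high without tamoxifen and higher with it. It gave 226, 313 and 251 with DMSO and 538, 631 and 608 with tamoxifen, and no array overlapped. It rose 2.25-fold, by a log2 difference of 1.09 ± 0.12 (limma adjusted p = 4.96e-05). In ascending order the groups were CA-NFATc3, vector, DMSO, Foxd3, both and tamoxifen, with neighbours overlapping except vector with DMSO and DMSO with Foxd3. Ms4a4d ranked 397 of the 2122 genes that rose with tamoxifen.

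Cnr1 encodes the cannabinoid receptor CB1, a G protein-coupled receptor that is abundant in brain. Its signal was 4.60, 49.3 and 25.7 in vector, 38.5, 42.9 and 48.1 in CA-NFATc3, 171, 192 and 199 under the Foxd3 label and 187, 195 and 185 in both. All vector and CA-NFATc3 arrays were low and all arrays of the other pair high, by at least 2.85-fold for Foxd3 against vector (1.98 ± 0.23). The vector array at 4.60 widened that difference: without it, the value was 1.68. With DMSO the 3 arrays were 301, 143 and 170 and with tamoxifen 219, 158 and 163, which overlapped. The tamoxifen difference of -0.12 did not pass (limma adjusted p = 0.726), and without DMSO replicate 1 it was 0.16. In ascending order the tamoxifen, Foxd3, both and DMSO groups each overlapped the next, and all lay apart from CA-NFATc3 and vector.

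Pkdcc encodes a secreted protein kinase that phosphorylates tyrosines of extracellular proteins and is needed for normal skeletal growth in mice. Its signal was 58.2, 61.7 and 55.1 in vector and 49.9, 45.2 and 41.8 in CA-NFATc3, all low. Under the Foxd3 label it was 383, 465 and 318, and in both 381, 308 and 278. These high arrays lay at least 5.91-fold above vector for Foxd3 (2.21 ± 0.16) and at least 4.90-fold above CA-NFATc3 for both (2.18 ± 0.16). In the knockout cells it gave 447, 653 and 683 with DMSO and 545, 590 and 531 with tamoxifen. The tamoxifen arrays lay above all transfected arrays, and 1 DMSO array lay within the range of the Foxd3 label. The tamoxifen and DMSO arrays overlapped, and their difference of -0.07 ± 0.14 did not pass (limma adjusted p = 0.724). Without DMSO replicate 1, the lowest of its group, the difference was -0.25 (limma adjusted p = 0.0467), a call that all 6 arrays did not give.

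Cyp1b1 encodes a cytochrome P450 that oxidises oestrogens, retinoids and polycyclic aromatic compounds and whose transcription the aryl hydrocarbon receptor activates. Its signal was 25.0, 24.6 and 28.5 in vector and 48.8, 57.2 and 79.8 in CA-NFATc3. It was 158, 159 and 258 in the arrays labelled Foxd3 and 112, 107 and 138 in both. The 4 transfected groups did not overlap, and their order was vector, CA-NFATc3, both and Foxd3. Foxd3 was at least 2.91-fold above vector (1.92 ± 0.20), while both stood 0.69 ± 0.20 above CA-NFATc3, the lowest such difference among the 6 genes. The tamoxifen arrays, at 573, 712 and 645, lay above all others, against 101, 109 and 129 with DMSO. Cyp1b1 rose 5.69-fold with tamoxifen (2.22 ± 0.13, limma adjusted p = 1.63e-07) and ranked 83 of the 2122 rising genes.

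Pdzph1 was the only member that stayed low in all knockout arrays. Its signal was 4.11, 9.0 and 18.8 in vector, 18.9, 4.02 and 6.52 in CA-NFATc3, 15.5, 8.29 and 14.6 with DMSO and 26.2, 1.39 and 6.20 with tamoxifen. These 4 groups overlapped with one another. Under the Foxd3 label it was 124, 114 and 191, at least 2.17-fold above vector (2.02 ± 0.25), and in both it was 72.8, 46.7 and 74.9. The group with both plasmids thus lay between the other groups and overlapped none of them, although 1 of its arrays was low. Pdzph1 did not reach 65.8 in enough knockout arrays and was not tested there.

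Zfhx3, also called ATBF1, encodes a large transcription factor with zinc fingers and homeodomains and was the member with no low array. Its signal was 202, 168 and 241 in vector, 136, 129 and 156 in CA-NFATc3, 742, 840 and 857 under the Foxd3 label and 628, 521 and 811 in both. CA-NFATc3 lay below vector without overlap, and the Foxd3 and both arrays overlapped above them. The Foxd3 label was 3.99-fold above vector (1.85 ± 0.15) and both were 1.97 ± 0.15 above CA-NFATc3. In the knockout cells it gave 1067, 873 and 1030 with DMSO and 1234, 1363 and 1328 with tamoxifen. It rose 1.32-fold with tamoxifen (0.40 ± 0.09, limma adjusted p = 0.00411), with no overlap, and all 6 knockout arrays lay above all transfected ones.

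The values just inside and just outside the largest rises describe the choice. Ranks are among genes that limma called and whose groups did not overlap. This filter serves only to rank and is no test of the members. For the rise of Foxd3 against vector the 6 genes held ranks 3 (Ms4a4d), 5 (Pkdcc), 6 (Pdzph1), 7 (Cnr1), 8 (Cyp1b1) and 11 (Zfhx3). Has2, a hyaluronan synthase, stood just below Cyp1b1 at 1.90 against 1.92. For both against CA-NFATc3 the ranks were 2 (Ms4a4d), 4 (Pkdcc), 7 (Zfhx3), 11 (Cnr1) and 32 (Pdzph1). Cyp1b1 was not among the genes ranked, and Ccnd2, a cyclin, stood just outside the first 8 at 1.79. For both against vector they were 6 (Ms4a4d), 10 (Cnr1), 11 (Pkdcc), 29 (Zfhx3), 47 (Cyp1b1) and 76 (Pdzph1). For Foxd3 against vector the groups did not overlap in 6 of 6 genes, as for 9.29% of all tested genes in that direction, a count that the choice itself fixed. The shares of all tested genes apart in that direction were 9.67% for both against CA-NFATc3 and 12.3% for both against vector, with the same 6 of 6. All 6 genes reached 65.8 in at least 3 transfected arrays, Zfhx3 in all 12 and the other 5 only through their high groups, and 5 of 6 passed in the knockout cells. Without the offset of 32 the difference of Foxd3 from vector was larger, at 3.97 for Pdzph1 and 3.38 for Cnr1.

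With CA-NFATc3 against vector Cyp1b1 lay higher and Zfhx3 and Pkdcc lower, each without overlap. Cyp1b1 differed by 0.68 ± 0.20, Zfhx3 by -0.44 ± 0.15 and Pkdcc by -0.22 ± 0.16. All arrays of Pkdcc in these groups, and all but 1 of Cyp1b1, were under 65.8. The other 3 genes overlapped, with differences of 0.43 ± 0.23 for Cnr1, -0.11 ± 0.20 for Ms4a4d and -0.03 ± 0.25 for Pdzph1. Without the offset of 32 the difference of Cyp1b1 was 1.22. These arrays are the dim arrays by which the genes were chosen, so the values are not read as a test.

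With both plasmids against the Foxd3 label alone Pdzph1 and Cyp1b1 were lower in every array, and the other 4 genes overlapped. Pdzph1 differed by -0.84 ± 0.25 and Cyp1b1 by -0.54 ± 0.20. Zfhx3 and Pkdcc gave -0.32 ± 0.15 and -0.24 ± 0.16, and Ms4a4d and Cnr1 0.02 ± 0.20 and 0.01 ± 0.23. Both groups were high by the choice of the genes, so these values are a description as well. Whether the effect of the Foxd3 label differed with and without CA-NFATc3 was not tested.

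**Figure D2:**
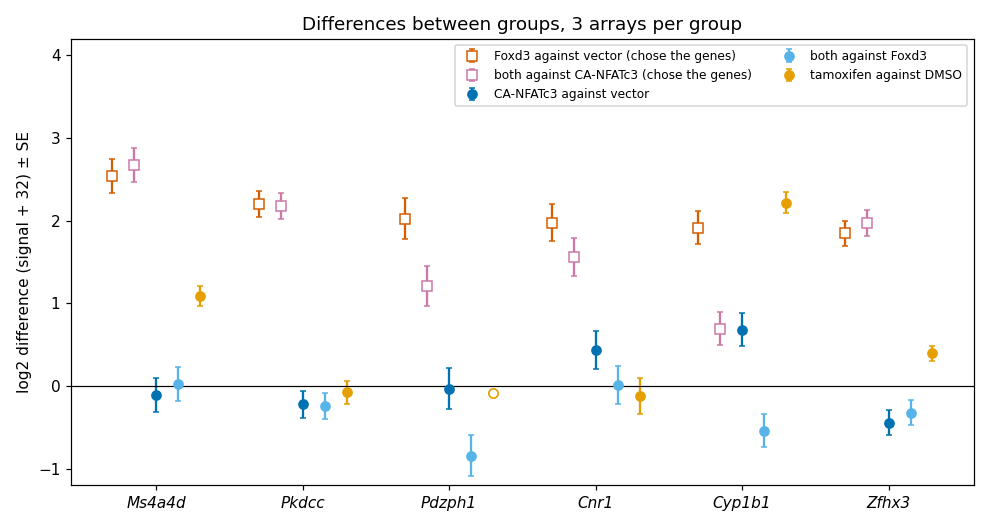
Difference of log2(signal + 32) with its SE for each of the 6 genes in 5 comparisons, of which 2 chose the genes; the hollow point, Pdzph1 with tamoxifen, has no SE because it was not tested. The 2 choosing comparisons lie above 0 for all 6 genes, whereas with tamoxifen Cyp1b1 and Ms4a4d lie highest and Pkdcc and Cnr1 lie near 0.

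With tamoxifen the drug-metabolising Cyp1b1, the membrane protein gene Ms4a4d and the transcription factor gene Zfhx3 rose. By limma 3 of the 5 tested genes rose and 0 fell, against 17.5% of all genes that rose, 16.9% that fell and 34.4% called in either direction. The call of Zfhx3 was lost with the mean of all its probe sets (0.18, limma adjusted p = 0.191), while Ms4a4d and Cyp1b1 passed under each alternative tried. With the mean of its probe sets the difference of Cyp1b1 was 0.96 (limma adjusted p = 0.00154).

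Markers of other cell types moved in the same arrays, where 17.5% of all genes rose and 16.9% fell. The summed signal of 10 fibroblast markers was 2790.4 to 3428 with DMSO and 17277 to 19602 with tamoxifen, and all 10 rose (limma), with a median difference of 2.16 against -0.01 over all tested genes. Dcn and Postn, which encode extracellular matrix proteins, rose by 3.54 and 3.49. The sum of the 9 haematopoietic markers on the array was 1557 to 1757 with DMSO and 8219 to 9411 with tamoxifen. Of these 9, 6 were tested and all 6 rose, Cd14 and Lyz2, both of the myeloid lineage, by 2.92 and 2.56. Ptprc among these 6 and Lum among the fibroblast markers were low in all DMSO arrays. They were therefore tested only because they were high with tamoxifen. Cd3e, Itgam and Spi1 had means under 65.8 in both knockout groups. Of the 10 embryonic stem cell markers 5 fell, Fgf4 by 1.5, Tdgf1 by 0.49, Klf4 by 0.31, Pou5f1 by 0.19 and Sox2 by 0.17, and their sum was 99556 to 102159 with DMSO and 86149 to 90672 with tamoxifen. The sum of 10 primitive endoderm markers was 4921 to 6634 with DMSO and 9319 to 10565 with tamoxifen, with 4 of 7 tested rising, and that of 10 neural markers 9112 to 9449 and 6330.4 to 6643, with 1 of 9 rising and 3 falling. Sparc made up most of the primitive endoderm sum (3902 with DMSO and 6991 with tamoxifen), and Pdgfra is also among the fibroblast markers. Gata6 (143 and 157) and Sox17 (100 and 117) were not called, nor was Lama1, which was lower with tamoxifen (272 and 199). The sums of trophoblast and of endothelial markers overlapped. The 3′ to 5′ actin ratio was 2.06 to 2.24 with DMSO and 1.89 to 1.90 with tamoxifen, without overlap. In bulk RNA a change in the number of cells of a type and a change of RNA per cell cannot be told apart. The part of these markers and of the ratio in the rise of Ms4a4d, Cyp1b1 and Zfhx3 was not tested.

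In the transfected cells the fibroblast and haematopoietic sums were lower than in either knockout group. The fibroblast sum was 394 to 468 in vector, 450.1 to 543 under the Foxd3 label, 608 to 828 in CA-NFATc3 and 867 to 961 in both. Of 4 fibroblast markers tested 0 were called for Foxd3 against vector (1 at an unadjusted p under 0.05, limma), and 7 of 10 had means under 65.8 in the arrays labelled Foxd3. For both against vector 2 of the 4 rose by limma, Col1a2 (2.63) and Col3a1 (1.63), against 3.48% of all genes. Col1a2 alone rose for both against CA-NFATc3 (2.07) and Col3a1 alone for CA-NFATc3 against vector (2.32), against 2.44% and 4.62%. For both against Foxd3 the same 2 rose, against 0.319%. These 2 genes were low in all vector arrays and passed the filter only through groups where they were higher. The haematopoietic sum was 325 to 498 in vector and 339 to 429 under the Foxd3 label, ranges that overlapped. The sum of 10 neural markers was 6314 to 6581 in vector, 7128 to 7900 under the Foxd3 label, 5860 to 6190 in CA-NFATc3 and 7115 to 7557 in both, so it was higher in the groups where the 6 genes were high. Stmn2 made up most of this sum, with 3840 in vector and 4382 under the Foxd3 label, while Tubb3 went the other way (772 and 706). Of 9 tested, limma called 1 higher for Foxd3 against vector (Gap43, 0.72), 0 for both against vector and 3 higher for both against CA-NFATc3. The shares of all genes called were 2.88%, 4.82% and 6.12%. With the replicate block they were 3 higher, 3 higher and 1 lower, and 4 higher, in fits that called more of all genes too. Of the embryonic stem cell markers 2 of 10 fell for Foxd3 against vector by limma, Klf4 by 0.33 and Esrrb by 0.23, against 1.17% of all genes. With the replicate block 3 fell, Utf1 (-0.41) being the third. The trophoblast sum was 3435 to 4082 in vector and 2915 to 3494 under the Foxd3 label. It was 5095 to 5386 in CA-NFATc3 and 3442 to 3584 in both. The primitive endoderm sum was 2879 to 3522, 3329 to 4422, 5797 to 7417 and 4317 to 5109 in the same groups. Tfap2c made up most of the trophoblast sum, and Sparc with Col4a1 most of the primitive endoderm sum. For both against CA-NFATc3 limma called 4 of 8 trophoblast and 2 of 6 primitive endoderm markers lower, against 3.69% of all genes. For CA-NFATc3 against vector 4 and 3 were higher, against 4.62%. Elf5, counted in each, passed the filter only through the CA-NFATc3 arrays. For Foxd3 against vector Tfap2c was called lower and Col4a1 higher, against 1.17% and 1.71%. With the replicate block Krt18 was also higher in the first and last comparison, and Sparc in the first. The part of these markers in the signals of the 6 genes was not tested.

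**Figure D3:**
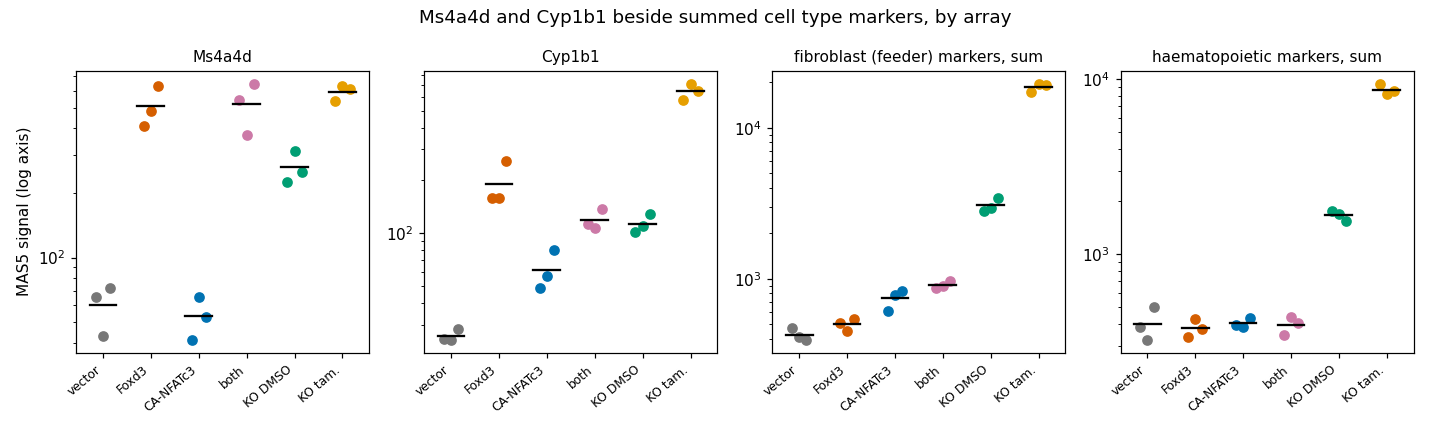
Signals of Ms4a4d and Cyp1b1 (log axis) beside the summed signal of fibroblast and haematopoietic markers (log axis) in each of the 18 arrays, with a colour for each group. The 3 tamoxifen arrays have the highest marker sums and the highest Cyp1b1, whereas their Ms4a4d signals overlap those of the arrays labelled Foxd3 and of both, whose marker sums are low.

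The other probe sets of the genes did not always repeat the main one. Of the 15 probe sets, 13 lay apart and higher under the Foxd3 label than in vector and 11 in both than in CA-NFATc3, with 12 passing the filter in transfected cells. Of all tested genes 9.29% and 9.67% did so, and the shares over all probe sets were not computed. The choice of the genes bears on these counts, so nothing is read from them. The 13 include 1416613_at of Cyp1b1 and 1429725_at of Zfhx3, which were low in all vector and Foxd3 arrays. The second Cnr1 probe set (1419425_at) differed by 0.14 ± 0.29 for Foxd3 against vector, with overlapping arrays, against 1.98 for the main one (1434172_at). The second Pkdcc probe set (1460411_s_at) lay apart with a difference of 0.97 ± 0.20, and gave 0.12 with tamoxifen (limma adjusted p = 0.652). For Cyp1b1 a second probe set of the same accession (1416613_at) rose with tamoxifen by 1.23 ± 0.20 (limma adjusted p = 0.000884) and was too low to test in transfected cells. The third Cyp1b1 probe set (1432081_at) gave 1.51 to 42.2 in all arrays and never reached 65.8.

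Zfhx3 is read by 6 probe sets, and all 6 lay apart and higher under the Foxd3 label, with differences from 0.55 to 1.85. The lowest, 1429725_at, did not pass the filter, and its arrays overlapped for both against CA-NFATc3 (0.10). With the mean of all probe sets the difference was 1.01 for Zfhx3 and 1.06 for Cnr1. For CA-NFATc3 against vector 1420649_at gave -0.55 ± 0.15 and the main one -0.44 ± 0.15. With tamoxifen 1460006_at rose (0.50 ± 0.16, limma adjusted p = 0.0394), with 28.3% of all probe sets called in either direction, whereas 1420649_at gave 0.06 (limma adjusted p = 0.689). Neither 1420650_at (0.41) nor 1453267_at, which went the other way (-0.30), passed (limma adjusted p = 0.11 and 0.307). The 1420649_at, 1420650_at and main probe sets share 1 accession in the platform's annotation.

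**Figure D4:**
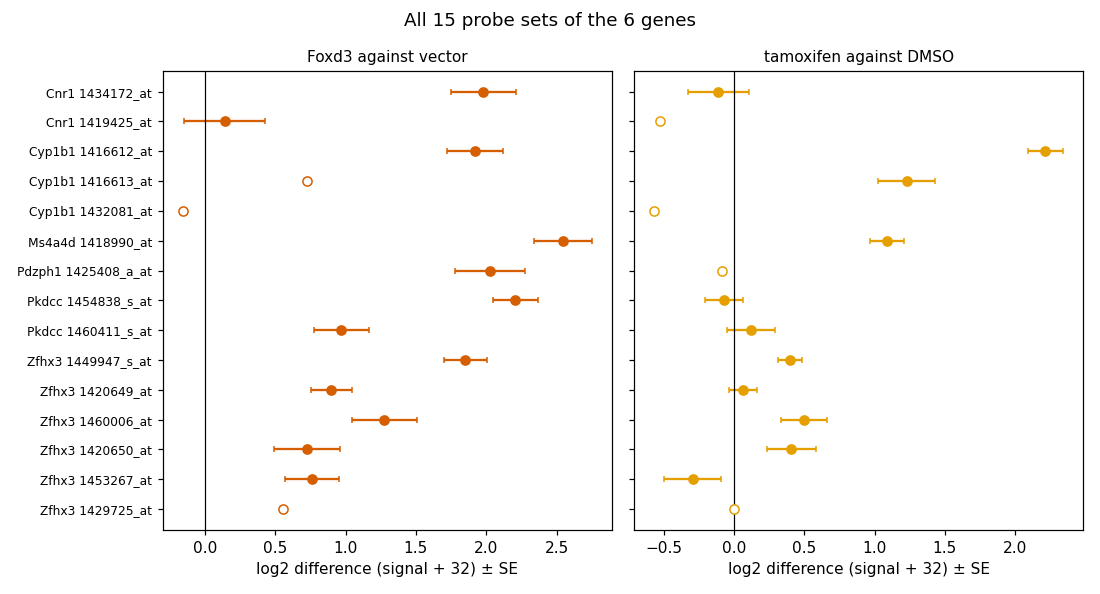
Difference of log2(signal + 32) with its SE for each of the 15 probe sets of the 6 genes; hollow points were under the filter and have no SE. For Foxd3 against vector all but the second Cnr1 and the third Cyp1b1 probe set lie clear of 0, and with tamoxifen the probe sets of Zfhx3 lie on both sides of 0.

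Genes related to the members by family or pathway were tested in lists chosen with earlier results of these data known. The calls given here for these lists were the same in number with the replicate block, added after the data were seen. Of the MS4A family 2 genes were tested in transfected cells and 0 called for Foxd3 against vector by limma (0 at an unadjusted p under 0.05), against 2.88% of all genes. With tamoxifen 6 of 7 rose, against 17.5% of all genes, with a median of 2.03 against -0.01 over all genes. They included Ms4a7 (2.68 ± 0.13), Ms4a6d (2.35 ± 0.11) and Tmem176b (2.21 ± 0.12), genes known from macrophages and dendritic cells, beside the rise of the haematopoietic markers. Ms4a6b, also among the 6, was low in all DMSO arrays and passed the filter only through the tamoxifen arrays.

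The aryl hydrocarbon receptor list holds the receptor that activates Cyp1b1 transcription, its partners and targets, and 6 were tested in transfected cells. Ahr, the receptor itself, was chosen after its values were seen: it gave 489 ± 28.2 in vector, 1016 ± 234 under the Foxd3 label, 460 ± 53.3 in CA-NFATc3 and 745 ± 100 in both. It rose by 0.99 ± 0.14 under the Foxd3 label (limma adjusted p = 0.000905) and by 0.66 ± 0.14 for both against CA-NFATc3 (limma adjusted p = 0.00922). Ahr was the only list member called in either, where 2.88% and 6.12% of all genes were called. Since it was picked from these values, they are a description. Nqo1, a quinone reductase and another target of the receptor, fell by 0.54 on the log2 scale with CA-NFATc3 (limma adjusted p = 0.0175), where 5.86% of all genes were called. With tamoxifen 1 of 6 was called, against 34.4% of all genes: Arnt, the partner of the receptor, which fell by 0.28 (limma adjusted p = 0.00996). The part of Ahr, Arnt or Nqo1 in the signals of Cyp1b1 was not tested.

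Of the other zinc finger homeobox factors 0 of 7 were called for Foxd3 against vector (1 at an unadjusted p under 0.05, limma), against 2.88% of all genes. With CA-NFATc3 2 of 7 fell, against 1.24% of all genes. Zeb1, a transcriptional repressor of epithelial genes, and Zhx1 fell by 0.51 and 0.69 (limma adjusted p = 0.0182 and 0.0358). The same 2 of 7 were higher when cells with both plasmids were compared with CA-NFATc3 alone, where 2.44% of all genes were. Zeb1 differed there by 0.62 (limma adjusted p = 0.00463) and Zhx1 by 1.03 (limma adjusted p = 0.00254). These rises and the falls share the CA-NFATc3 arrays. Comparing both plasmids with vector gave 0 calls among the 7. With tamoxifen 4 of 11 rose and 0 fell, against 17.5% and 16.9% of all genes. The largest rises were in Tshz1 (1.24), Zeb1 and Zhx1 (both 1.05). The other of the 4 was low in all DMSO arrays and passed the filter only through the tamoxifen arrays. Of 8 secretory pathway kinases, relatives of Pkdcc in function, 0 were called for Foxd3 against vector (1 at an unadjusted p under 0.05, limma), against the same 2.88%. With tamoxifen 2 of the 8 rose, Gask1b (0.76) and Fam20b (0.36), and 1 fell, Pomk by 0.50, against 17.5% and 16.9% of all genes.

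The endocannabinoid list holds the enzymes that make and break the ligands of Cnr1, and 10 were tested. For Foxd3 against vector 1 of the 10 was called, against 2.88% of all genes. This was Naaa, an amidase of acylethanolamines chosen after its value was seen, which fell by 0.58 (limma adjusted p = 0.00993). With tamoxifen 1 of 10 rose and 1 fell, against 17.5% and 16.9% of all genes. Cnrip1, a protein that binds the receptor, rose by 1.18 and Napepld, which makes the ligand anandamide, fell by 0.61.

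The 3 protein-coding genes on either side of each member in the gene table of GRCm38.p6 came to 36, of which 32 were on the array and 21 were tested in transfected cells. By limma 0 were called for Foxd3 against vector (6 at an unadjusted p under 0.05) and 0 for both against CA-NFATc3 (3 at an unadjusted p under 0.05), against 2.88% and 6.12% of all genes tested. With the replicate block 2 were called for Foxd3 against vector, Pnrc1 (0.35) and Wwp2 (-0.27), and 3 for both against CA-NFATc3, Qpct (-0.72), Cdc42ep3 (-0.31) and Fbxl17 (-0.30). The block called more of all genes too (counts given below), so 2.88% and 6.12% are not its shares. For CA-NFATc3 against vector 1 was called, against 5.86% of all genes: Pnrc1, a nuclear receptor coactivator beside Cnr1 (0.53, limma adjusted p = 0.00569). With the block Psmd7 (-0.27) was called too. With tamoxifen 10 of 24 rose and 4 fell, against 17.5% and 16.9% of all genes. Beside Ms4a4d these were Ms4a6b, Ms4a6c and Ms4a6d, which rose by 1.95, 1.13 and 2.35, Ms4a6b having passed the filter only through the tamoxifen arrays. Beside Pdzph1 Adgre1, a gene of macrophages, rose by 1.83, Fbxl17 rose (0.52) and Nudt12 fell (-0.53). Beside Cyp1b1 Qpct (0.90), Cdc42ep3 (0.60) and Rmdn2 (0.51) rose and Hnrnpll (-0.16) fell. Nob1 (0.22) and Wwp2 (0.33) beside Zfhx3 rose, and Eml4 (-0.23) beside Pkdcc and Orc3 (-0.44) beside Cnr1 fell.

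Across the 12 transfected arrays the members resembled one another, with Pearson correlations of log2(signal + 32) from 0.838 (Pkdcc with Cyp1b1) to 0.977 (Ms4a4d with Zfhx3). These arrays share the groups by which the genes were chosen, so the values are a description. The genes most like each member by the same measure were Galnt7 for Ms4a4d (0.992), Gnas for Cnr1 (0.985), Sox11 for Pkdcc (0.981), Fras1 for Cyp1b1 (0.972), Armcx4 for Pdzph1 (0.971) and Sulf1 for Zfhx3 (0.989). Cdkn1c, an inhibitor of cyclin-dependent kinases, was among the 3 most like Ms4a4d, Pdzph1 and Zfhx3.

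The 3 genes most like each member came to 14 different genes. With tamoxifen 7 of the 14 fell and 2 rose by limma, against 16.9% and 17.5% of all genes. Those that fell included Sox11, a transcription factor of neural progenitors (-0.65 ± 0.06), and Cdkn1c (-0.59 ± 0.10). Hmgxb4 (0.47 ± 0.06) and Gnas (0.27 ± 0.07) rose.

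The knockout cells without tamoxifen had signals above vector for most of these genes. With DMSO 5 of 6 lay above vector without overlap, Pdzph1 being the exception, against 36.6% of 12678 genes that did so and 24.2% that lay below. The vector arrays were low by the choice of the genes, so nothing is read from this count. The lines differ in genotype and in transfection, and these cannot be told apart.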

How the data were processed

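The authors deposited 1 intensity for each probe set, a linear MAS5 signal according to the submitters' processing notes, which name no version. Each array's mean, trimmed of its lowest and highest 2%, was 500, so the arrays were taken as scaled by the authors. No further normalization was applied. After adding 32, log2 values were computed from the deposited signals. Each gene was read by its probe set with the highest mean. Genes at or above 65.8 in at least 3 arrays of a fit were tested: 11609 in the 12 transfected arrays and 12093 in the 6 knockout arrays. Group means were fitted with limma 3.58.1 (lmFit and eBayes with a variance trend, R 4.3.3) separately for both sets of arrays, with two-sided p-values adjusted by Benjamini and Hochberg over all genes, or all probe sets, tested and a threshold of 0.05. The fits were tested on simulated data. Python 3.11.15 and matplotlib 3.10.9 drew the figures.

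Residuals of the 18 transfected pairs of arrays with the same replicate number correlated at 0.104 to 0.315, so the numbers pair these arrays; the 3 knockout pairs correlated at -0.0425 to 0.0152 and are not paired. The block was run for all counts over genes, the members and the listed genes, and is given where it changes a call or count printed here. Members in CA-NFATc3 against vector and both against Foxd3 were planned as tests and are described only, since their arrays chose the genes.

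The members and lists were chosen with earlier results of these data known. Named genes are the members, Foxd3 and Nfatc3, the 3 genes most correlated with each member over the transfected arrays, up to 3 called genes per list in each tested comparison, called neighbours, and the gene just outside the 8 largest rises; Ahr, Naaa, cell type markers and neighbours called with the block were named after their values were seen. Alternatives were no offset, no filter, quantile normalization, the mean of all probe sets, the replicate block, 1 fit of all 18 arrays, and each replicate left out. List genes without a probe set were not analysed here.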

Additional observations from a re-analysis of the deposited data

How the results depend on the processing

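With the replicate number as a block, limma called 783 genes for Foxd3 against vector (334 without), 1258 for both against CA-NFATc3 (711), 1122 for both against vector (559), 1104 for CA-NFATc3 against vector (680) and 96 for both against Foxd3 (38). With the mean of all probe sets Foxd3 against vector gave 220, both against vector 341 and both against Foxd3 25 calls, and with all 18 arrays in 1 fit 63 for both against Foxd3. Leaving out 1 replicate gave 158 to 282 for Foxd3 against vector, 385 to 585 for both against CA-NFATc3, 322 to 461 for both against vector, 349 to 620 for CA-NFATc3 against vector, 22 to 28 for both against Foxd3 and 2978 to 4366 for tamoxifen against DMSO (4165 with all arrays). The counts moved by over 1.5 times without CA-NFATc3 replicate 3, vector replicate 3, Foxd3 replicate 1, 2 or 3, or replicate 2 or 3 of both.

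Of the members' differences, some near 0 changed sign. For both against Foxd3 Ms4a4d was -0.021 and Cnr1 -0.0665 with quantile normalization, and -0.14 to 0.23 and -0.044 to 0.051 without 1 replicate. Pdzph1 for CA-NFATc3 against vector was -0.18 to 0.10 without 1 replicate. With tamoxifen Pkdcc was 0.023 with the mean of probe sets and -0.25 to 0.034 without 1 replicate, and Cnr1 -0.30 to 0.16. The cause was not tested. The mean of probe sets gave no value for Cyp1b1 in transfected cells, where it did not pass the filter. The replicate block changed no call of the members with tamoxifen. For CA-NFATc3 against vector and both against Foxd3 the members are described only, so no call with the block is given. Signals of Pdzph1, and of Cnr1, Pkdcc, Ms4a4d and Cyp1b1 in vector, lie near or under 65.8, the median of all values, which limits their folds.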
